A study of Mus musculus with 6 samples.

Results

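In cultured mouse neural stem cells treated with crotonate, 974 of the 15879 H3K27me3 peaks each covered ground that was split into 2 or more peaks in water-treated cells. These fused peaks made up 6.13% of the crotonate list. They were chosen from the peak lists themselves: a crotonate H3K27me3 peak that overlapped at least 2 water H3K27me3 peaks by at least 1 bp each, none of which was 10000 bp long or longer. Together they took in 2212 of the 7643 water peaks, or 28.9% of the water list, and 17 of those water peaks reached into 2 fused peaks. Of the other crotonate peaks, 4652 overlapped exactly 1 water peak, 10042 overlapped none, and 211 overlapped several but were left out because a water peak among them reached 10000 bp. Choice of the members used H3K27me3 in both treatments, so every comparison of H3K27me3 between treatments given here is a description with no test.

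The cells were neural stem and progenitor cells (NSPCs) taken from mouse forebrain at E13.5, of a strain and genotype that the labels do not name, and all of them were grown with epidermal and fibroblast growth factors. The treated cells received 10 mM crotonate for 24 h and the control cells received water. CUT&Tag, which steers a transposase to antibody-bound chromatin so that only the DNA beside the mark is tagged, was run on both with antibodies to H3K27me3 and H3K4me3 and with normal rabbit IgG. There was 1 library for each antibody and treatment, with no replicate, so no value below carries an error between cultures.

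H3K27me3 is laid down by Polycomb repressive complex 2, whose subunit Eed binds the mark and stimulates the enzyme Ezh2 to methylate neighbouring nucleosomes, which lets the mark spread as a broad domain. In embryonic cells it covers silent developmental genes, often over CpG-rich promoters, and where H3K4me3 lies in the same place the promoter is called bivalent. H3K4me3 marks promoters that are active or poised. Crotonate is a short-chain fatty acid that cells turn into crotonyl-CoA, the donor for histone crotonylation.

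A gap between called peaks is a stretch that did not pass the caller's threshold, not a stretch shown to lack the mark. The smallest gap was 333 bp in the crotonate list and 343 bp in the water list, so closer stretches had already been merged before deposit. The lowest called summit held 8 fragments in the crotonate H3K27me3 library and 14 in the water library, as read from the step size of the pileups. The caller's background was estimated to be 1.80 times as deep with crotonate as with water, and the H3K27me3 library 0.811 times as deep. Crotonate summit signal and background were also both divided by the background ratio of 1.80, not by that of the H3K27me3 libraries. Crotonate peaks under the weakest water p-value were then dropped. This left 11256 crotonate peaks, of which 959 met the rule. Peak edges stayed as called, so this cannot show whether fused peaks would come apart at equal depth. H3K4me3 marked all 10 neural stem markers and all 3 neuronal markers in both treatments. It marked 3 of 3 oligodendrocyte lineage markers after crotonate against 2 in water (Mbp was unmarked there), 1 of 3 fibroblast markers after crotonate against 0 in water, 1 of 3 endothelial markers in both and none of the 3 microglial markers in either.

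Joined gaps took in 28 RefSeq transcription start sites of 24 protein-coding genes. The start site lay in the gap, but the promoter before it could reach past the gap, as at Cacna2d1, Tmem150c and Tnfrsf11a. Of these promoters 6 are printed here, chosen after their values were seen. They are the 2 richest in CpG among those with H3K4me3 in both treatments, the 2 richest among those with H3K4me3 after crotonate and not in water, and the 2 poorest among those with H3K4me3 in neither. Each is the 250 bases before the start site on the gene's own strand, from RefSeq on GRCm38.p6, written 5′ to 3′, and capitals mark CpG dinucleotides.
Cacna2d1: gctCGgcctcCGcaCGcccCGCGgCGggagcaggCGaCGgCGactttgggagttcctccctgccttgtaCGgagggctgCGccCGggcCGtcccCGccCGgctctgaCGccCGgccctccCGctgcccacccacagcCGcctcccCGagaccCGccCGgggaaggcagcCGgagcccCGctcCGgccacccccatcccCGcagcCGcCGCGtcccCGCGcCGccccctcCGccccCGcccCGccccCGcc
Tmem150c: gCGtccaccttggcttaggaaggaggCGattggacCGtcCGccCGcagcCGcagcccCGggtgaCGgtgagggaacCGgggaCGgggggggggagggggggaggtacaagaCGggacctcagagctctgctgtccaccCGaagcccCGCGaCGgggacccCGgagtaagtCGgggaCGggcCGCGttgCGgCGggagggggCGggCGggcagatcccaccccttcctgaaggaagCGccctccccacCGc
Rasgef1c: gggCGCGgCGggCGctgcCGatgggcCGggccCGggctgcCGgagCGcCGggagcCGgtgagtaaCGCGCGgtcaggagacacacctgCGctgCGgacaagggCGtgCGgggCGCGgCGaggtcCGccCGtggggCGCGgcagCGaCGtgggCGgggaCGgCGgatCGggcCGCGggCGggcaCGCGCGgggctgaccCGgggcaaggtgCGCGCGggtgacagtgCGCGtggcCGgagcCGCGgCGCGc
Tnfrsf11a: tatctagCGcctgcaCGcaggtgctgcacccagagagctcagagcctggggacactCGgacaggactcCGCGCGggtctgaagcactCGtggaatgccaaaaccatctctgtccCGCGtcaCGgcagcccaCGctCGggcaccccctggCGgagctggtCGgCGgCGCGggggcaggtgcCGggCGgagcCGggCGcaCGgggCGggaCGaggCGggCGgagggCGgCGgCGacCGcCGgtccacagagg
Slc34a1: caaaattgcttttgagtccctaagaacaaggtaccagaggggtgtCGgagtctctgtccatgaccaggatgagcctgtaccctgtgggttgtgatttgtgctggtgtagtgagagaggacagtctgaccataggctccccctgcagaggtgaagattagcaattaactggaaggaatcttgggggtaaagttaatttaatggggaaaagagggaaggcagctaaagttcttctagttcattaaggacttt
Gpr1: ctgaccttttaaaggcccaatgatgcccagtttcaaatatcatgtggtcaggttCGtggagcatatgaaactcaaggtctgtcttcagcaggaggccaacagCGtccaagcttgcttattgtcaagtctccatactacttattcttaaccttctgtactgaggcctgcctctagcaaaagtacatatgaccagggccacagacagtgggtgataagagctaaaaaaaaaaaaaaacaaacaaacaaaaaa
The first pair, at Cacna2d1 (chr5:15934441-15934690, plus strand) and Tmem150c (chr5:100159282-100159531, minus strand), held 36 and 26 CpGs and carried H3K4me3 at the start site in both treatments. Cacna2d1 encodes an auxiliary subunit of voltage-gated calcium channels. The second pair, at Rasgef1c (chr11:49901911-49902160, plus strand) and Tnfrsf11a (chr1:105780473-105780722, plus strand), held 48 and 31 CpGs and carried H3K4me3 after crotonate only. Tnfrsf11a encodes RANK, the receptor that drives osteoclast formation. The third pair, at Slc34a1 (chr13:55399398-55399647, plus strand) and Gpr1 (chr1:63210717-63210966, minus strand), held 1 and 2 CpGs and had no H3K4me3 peak at the start. Slc34a1 encodes a sodium-phosphate cotransporter of the kidney tubule. The gap around the start was 372 bp at Cacna2d1, 366 bp at Tmem150c, 472 bp at Rasgef1c, 585 bp at Tnfrsf11a, 1821 bp at Slc34a1 and 1128 bp at Gpr1. The 250 bases before the bridged start sites ran from CpG-dense to CpG-poor, with 1 to 48 CpGs over the 28 sites.

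Most fused peaks joined a single pair of water peaks. There were 765 such members (78.5%), with a median crotonate length of 4341 bp. A further 160 joined 3 water peaks (median 7758 bp), 33 joined 4 (median 9339 bp), 10 joined 5, 5 joined 6 and 1 joined 7. The median fused peak was 5053 bp long after crotonate, with quartiles of 3266 and 7744 bp and a range of 646 to 24186 bp. The water peaks under it summed to a median of 3413 bp, with quartiles of 1876 and 5999 bp.

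**Figure D1:**
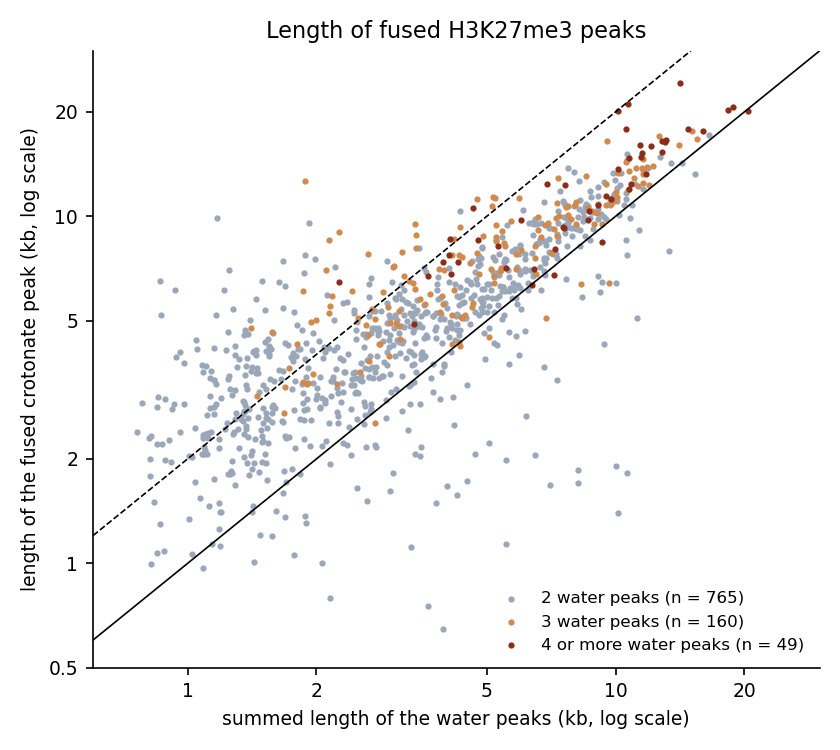
Length of each of the 974 fused peaks after crotonate (vertical axis, kb, log scale) against the summed length of its water peaks (horizontal axis, kb, log scale), coloured by the number of water peaks joined; the solid line marks equal lengths and the dashed line a ratio of 2. Most points lie above the solid line, 118 lie below it, and 191 lie on or above the dashed line.

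The length of a fused peak over the sum of its water peaks had a median of 1.38, with quartiles of 1.14 and 1.82. It reached 2 or more in 191 members (19.6%). In 118 members (12.1%) it was under 1: there the crotonate peak bridged the gap but covered only part of the water peaks beside it. The lowest ratio, 0.138, belonged to a 1395 bp crotonate peak over water peaks of 8992 and 1138 bp, with its summit 4876 bp from an end of Spring1. In 37 members at least 1 of the overlaps with a water peak was shorter than 100 bp. When at least 50% of a water peak had to lie inside the crotonate peak, 845 crotonate peaks met the rule.

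Fused peaks covered 5.75 Mb in all. Water peaks already covered 3.90 Mb of this (67.8%), the joined gaps added 967 kb (16.8%), and growth past the outermost water peaks added 886 kb (15.4%). Growth was on both sides in 481 members and on neither in 124. The summit of the fused peak lay inside a former water peak in 853 members (87.6%), in a joined gap in 80 (8.21%) and beyond the outer water peaks in 41. There were 1255 joined gaps, of which 243 were at least 1 kb and 50 at least 2 kb, and the longest gap in a member had a median of 643 bp and a maximum of 4152 bp.

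Fused peaks contributed 129 of the 537 crotonate domains of 10 kb or more (24.0%), against 398 water domains of that length. In 63 of the 129 the water peaks already summed to 10 kb or more. The joined water peaks included weak calls: 253 members held at least 1 water peak with −log10 q under 2, while in 191 members every water peak had 5 or more. Just inside the length limit were the members at Gpr50 (longest water peak 9988 bp), Nphs1 (9973 bp) and Wnt3a (9945 bp). Just outside it were peaks that included those at LOC115488016 (10047 bp) and Six6 (10100 bp).

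The rule can be turned round to ask how often neighbouring peaks of either list were met by a single peak of the other. Of water peaks with less than 1 kb between them, 1296 of 2251 neighbouring pairs were met (overlapped by at least 1 bp each) by a single crotonate peak, or 57.6% (exact Clopper-Pearson 95% interval 55.5 to 59.6%). Of crotonate peaks that close, 422 of 4840 pairs were met by a single water peak, or 8.72% (7.94 to 9.55%). All such intervals here cover counting error only, and neighbouring peaks of a library are not independent. The share of water pairs joined was 74.1% below 0.5 kb, 48.4% from 0.5 to 1 kb, 24.3% from 1 to 2 kb and 7.84% from 2 to 5 kb. The share of crotonate pairs joined in water at those distances was 14.2%, 5.41%, 0.746% and 0 of 2183 pairs, which allows up to 0.137%.

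**Figure D2:**
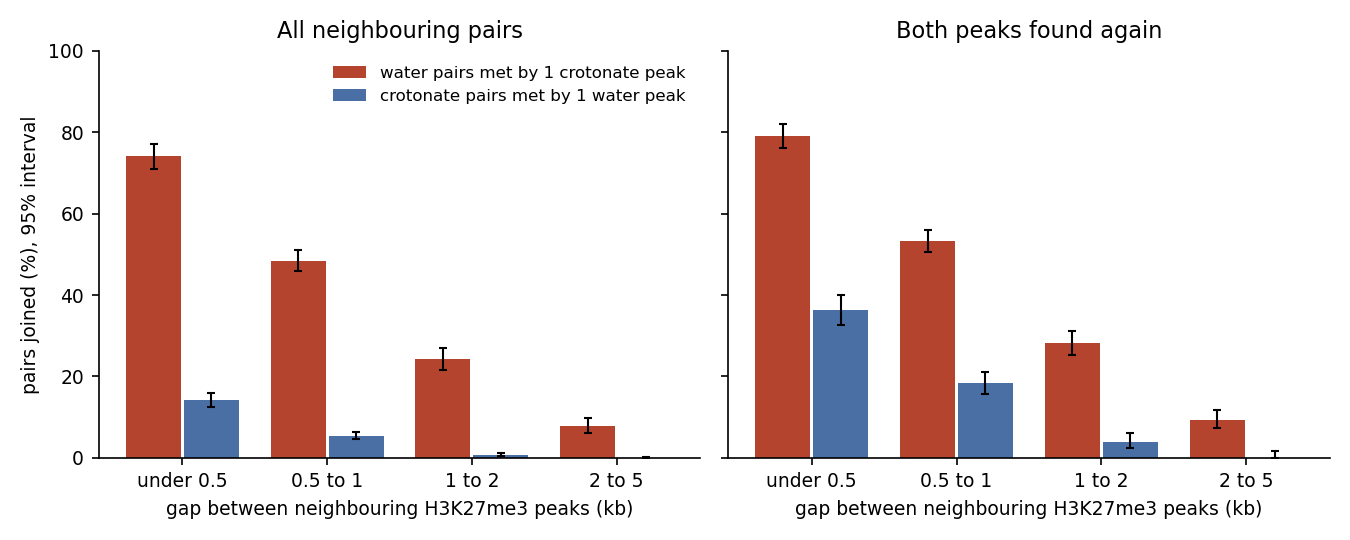
Share of neighbouring H3K27me3 peak pairs that were met by a single peak of the other list (vertical axis, %, bars with exact 95% intervals) by the gap between them (horizontal axis, kb), for water pairs in crotonate (red) and crotonate pairs in water (blue), over all pairs on the left and over pairs found again in the other list on the right. At each distance the water pairs were joined more often, with 74.1% and 14.2% below 0.5 kb on the left.

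The crotonate list had 15879 peaks and the water list 7643, so more crotonate peaks had no counterpart to lie in. Restricted to pairs whose members were both found again in the other list, the shares within 1 kb were 62.7% of 2066 water pairs and 26.3% of 1606 crotonate pairs. From 2 to 5 kb they were 9.33% of water pairs and 0 of 227 crotonate pairs, which allows up to 1.32%. The mirrored rule gave 344 water peaks that crotonate peaks split, or 4.50% of the water list, with a median length of 3142 bp. This count depended on the lists: it was 212 (against 937 fused) with lists of equal length, 173 (845 fused) at 50% overlap, 196 (791 fused) and 78 (492 fused) after stitching at 500 and 1000 bp, and 147 (275 fused) at −log10 q of at least 5. Of the 344, 111 also lay in a fused peak, so fusion and splitting met at those places. The part that the differing depths have in these shares was not tested.

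The longest fused peaks lay at genes of other lineages as well as at neural genes. Blk, a Src-family kinase of B lymphocytes (chr14:63372837-63417187), carried 3 fused peaks. The longest of all, chr14:63371632-63395817, was 24186 bp and joined 6 water peaks of 687, 5779, 3496, 1872, 904 and 1418 bp over a longest gap of 3137 bp. Its fold enrichment at the summit, the authors' value, was 17.9, against at most 9.36 in its water peaks. The other long one, chr14:63408949-63429949, was 21001 bp, joined 6 water peaks that summed to 10676 bp, and grew 5771 bp past them. Neither held an H3K4me3 peak in either treatment. Fold enrichments here come from separately called lists and are set side by side only as deposited.

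**Figure D3:**
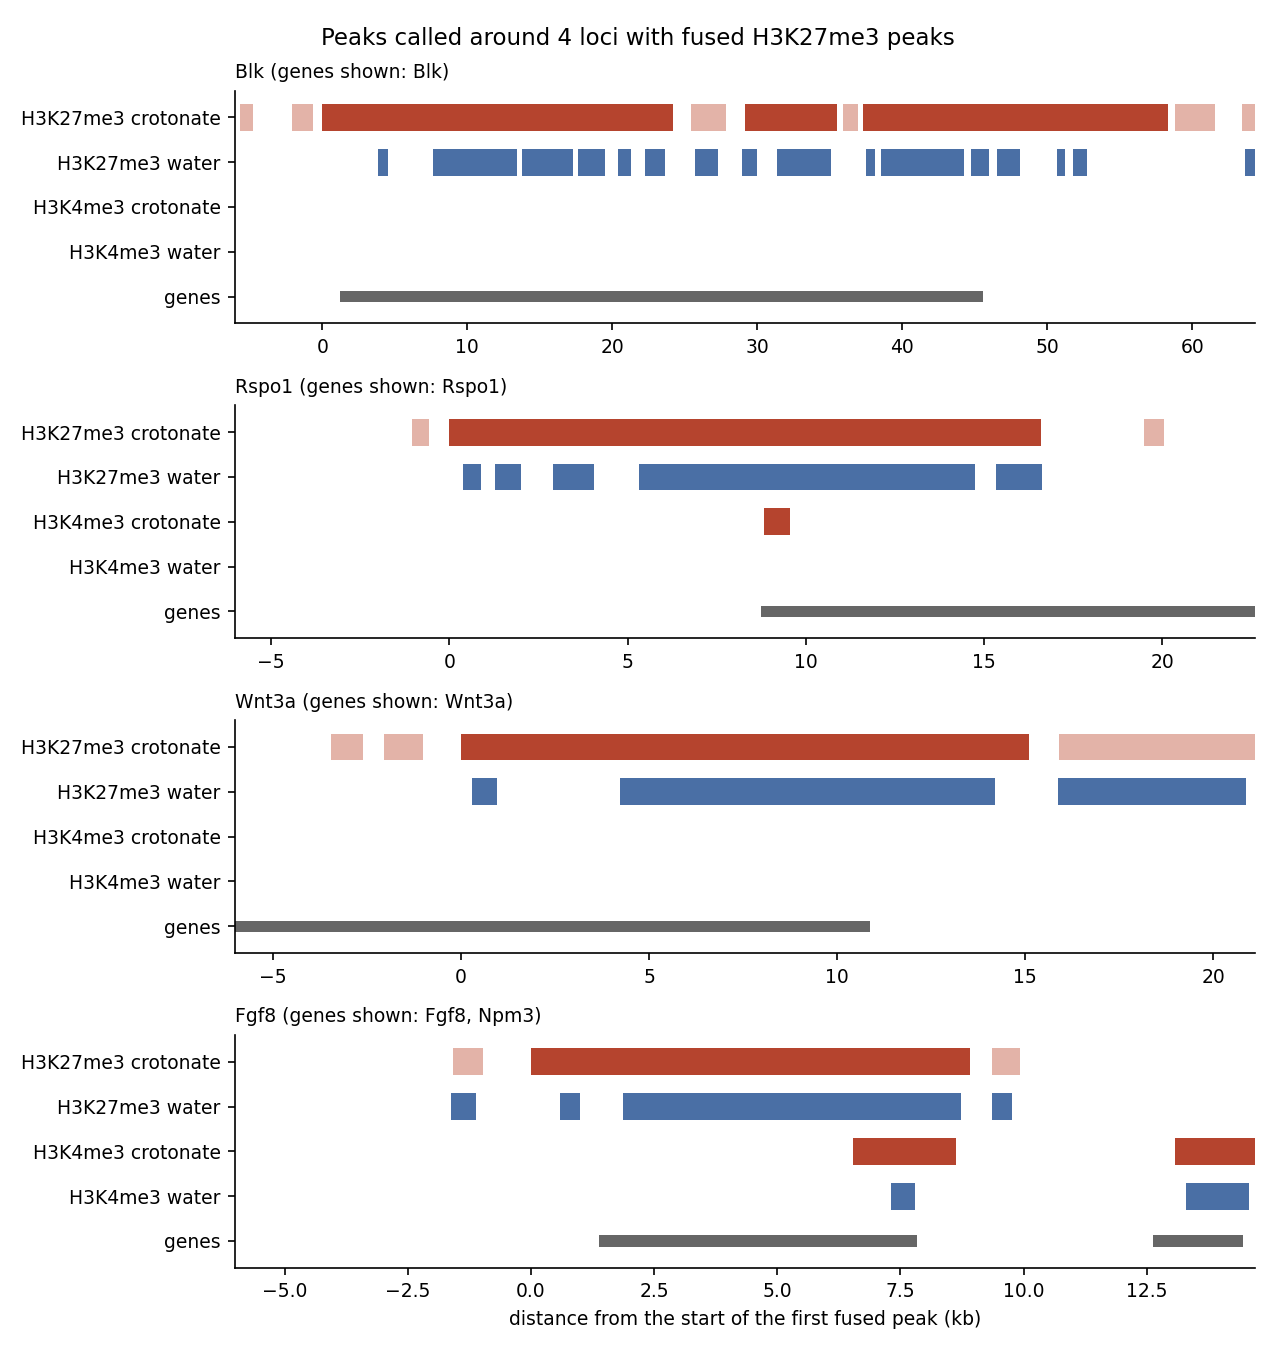
Peaks called around the fused peaks at Blk, Rspo1, Wnt3a and Fgf8, each with its crotonate track above its water track for H3K27me3 and H3K4me3, and genes as grey bars; the horizontal axis is distance from the start of the first fused peak (kb), fused peaks are dark red and other crotonate H3K27me3 peaks pale red. At Blk the first fused peak, 24186 bp long, lies over 6 water peaks, Rspo1 has an H3K4me3 peak after crotonate and none in water, and at Fgf8 the H3K4me3 peak is 2093 bp after crotonate and 485 bp in water.

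Sv2b, a synaptic vesicle glycoprotein gene, had a 20627 bp fused peak (chr7:75291690-75312316) over 4 water peaks that summed to 18771 bp, so here fusion closed gaps of at most 755 bp and added little length. A 535 bp H3K4me3 peak lay in it after crotonate and none in water. The peak at an end of Iqch (chr9:63409880-63430170) was of the same kind, with 20291 bp over 5 water peaks that summed to 18275 bp. Plaat5, of the phospholipase A and acyltransferase family, shared its 17827 bp fused peak with Lgals12, a galectin gene (chr19:7600195-7618021). That peak joined 5 water peaks that summed to 10591 bp, and grew 4510 bp outward. Ferd3l, a bHLH transcription factor gene, lay wholly within a 17844 bp peak (chr12:33919881-33937724) of 4 water peaks.

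Ccno and Mcidas, which drive the formation of multiciliated cells, lay in the same 17662 bp fused peak (chr13:112985641-113003302), over 4 water peaks that summed to 16024 bp. H3K4me3 peaks, of 1930, 745 and 659 bp, lay in it after crotonate, against 1 of 814 bp in water. Nphs1 and Kirrel2, which encode nephrin of the podocyte slit diaphragm and a related adhesion protein, shared a 17146 bp peak (chr7:30451527-30468672) made of only 2 water peaks, 9973 and 6546 bp long and 464 bp apart. A 1229 bp H3K4me3 peak lay in it after crotonate and none in water. Ets1, a transcription factor of lymphocytes and endothelium, and Skap1, a T-cell adaptor, each had a fused peak of 5 water peaks, 14814 bp and 14743 bp long. Neither of these held H3K4me3 in either treatment. Sertad4 had the fused peak chr1:192830381-192844084, 13704 bp long over 5 water peaks, which ended short of the gene and inside a 2 kb window at its end.

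Long gaps were bridged at fewer places. The longest at a gene was 3876 bp, beside Dnajb8, a co-chaperone gene: the fused peak chr6:88223645-88236272 was 12628 bp, over 3 water peaks of 588, 878 and 416 bp. Wnt3a, a Wnt ligand of the cortical hem, had a 15099 bp fused peak (chr11:59279869-59294967) that joined a 9945 bp water peak over an end of the gene to a 668 bp water peak across 3275 bp. Its summit fold enrichment was 46.7 after crotonate and 69.4 in water. In this member the peak lengthened while the deposited summit value was lower. Tenm4 and Tenm2, which encode teneurins, adhesion proteins of developing neurons, had fused peaks inside the gene with longest gaps of 3160 and 3111 bp. At Tenm2 the peak chr11:36046878-36053393 was 6516 bp over water peaks of 819 and 670 bp, and its summit lay in the joined gap. Tnxb, Acer3 and Ggt1 followed with gaps of 2896, 2816 and 2804 bp, all inside the gene.

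Some members at genes grew several times over from short water peaks of low enrichment. The ratio was 7.57 at Pcsk6, a proprotein convertase gene, 6.71 beside Dnajb8 and 6.60 at Adcy4, an adenylyl cyclase gene that shares its member with the necroptosis kinase gene Ripk3. It was 5.63 at Pax2, a transcription factor gene of kidney and hindbrain, and 4.97 at Lmx1b, a LIM homeobox gene of midbrain dopamine neurons. At Lmx1b the member chr2:33555621-33565158 was 9538 bp over water peaks of 1250 and 671 bp. None of these 5 members held an H3K4me3 peak in either treatment.

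The 8 members at genes with the highest −log10 q after crotonate were highly enriched in both treatments. The highest −log10 q after crotonate, 269, was at chr2:25287075-25294662, which covers Tmem210, Lrrc26 (an auxiliary subunit of BK potassium channels) and an end of Grin1 (the obligatory NMDA receptor subunit). This peak was 7588 bp over water peaks of 6367 and 516 bp, with fold enrichment 77.8 after crotonate and 59.0 in water, and it held a 576 bp H3K4me3 peak after crotonate and none in water. Rspo1, an R-spondin that amplifies Wnt signalling, had −log10 q 246 and a 16591 bp peak (chr4:124977645-124994235). It joined a 9420 bp water peak to 4 short ones of 505, 743, 1152 and 1287 bp. Fold enrichment was 72.3 after crotonate and 74.5 in the strongest water peak, and a 748 bp H3K4me3 peak stood at its gene end after crotonate only. Prrxl1, a homeobox gene of pain-sensing neurons, Tchh, the hair follicle protein trichohyalin, and Dkk1, a secreted Wnt antagonist, had fold enrichments of 67.2, 64.5 and 63.2 after crotonate, against 55.1, 70.003 and 58.6 in water. At Tchh the fused peak was 13376 bp over water peaks of 7513 and 462 bp, and 5021 bp of it lay past their outer edges. At Dkk1 the peak chr19:30545208-30555029 was 9822 bp over water peaks of 6406 and 2683 bp with 437 bp between them. Fam43b, Rprml and Wnt3a completed this set. The members at Fam43b and Rprml each had an H3K4me3 peak after crotonate and none in water. The Wnt3a member, described above, had none in either treatment, with fold enrichment 46.7 after crotonate and 69.4 in water.

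Fused peaks lay at the end of a protein-coding gene in 346 members (35.5%), inside a gene away from its ends in 259 (26.6%) and between genes in 369 (37.9%). Here an end means within 2 kb of either annotated end, since the gene table gives no strand and no exons. Crotonate peaks with exactly 1 water partner were spread alike, at 33.7%, 26.7% and 39.6%. Those with no water partner lay at gene ends in 12.9%. Over the whole crotonate list 21.1% lay at gene ends. A longer peak can reach more gene ends, and these shares were not matched for length. Median lengths were 5053 bp for fused peaks, 1835 bp with 1 water partner and 600 bp with none. Of the fused peaks, 423 (43.4%) lay within 50 kb of another. This share was not computed for other crotonate peaks, so it does not show that fused peaks group more than those.

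Among fused peaks between genes, the longest, chr12:32861752-32881909, was 20158 bp over 5 water peaks that summed to 20388 bp, and its nearest gene end was that of Nampt, 27830 bp from the summit. The member with the most water peaks, 7, was chr6:99884109-99904201. It was 20093 bp over water peaks that summed to 10150 bp, and its summit lay 162776 bp from the nearest gene end, that of Prok2. The member chr2:19422816-19439325, 16510 bp over 4 water peaks, had its summit 13337 bp from an end of Ptf1a, the bHLH gene of pancreas and cerebellum.

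Some genes carried several fused peaks. Alpk1, a kinase of innate immune sensing, and Pls3, an actin bundling protein, each had 6. Apoo, Skap1 and Zfx had 5 each, and Lmx1b, Mid1, Tenm2 and Tenm4 had 4 each. In all, 82 genes carried 2 or more, at their ends or over their span. Among the genes just named, spans ran from 50.1 kb at Apoo to 1230 kb at Tenm2. No such count was made for other peaks. Pls3, Apoo, Zfx and Mid1 are X-linked. Chromosome X held 93 members (9.55%), near its share of the whole crotonate list (9.09%). Fused peaks on X were shorter, with a median of 3262 bp against 5238 bp elsewhere, and the crotonate list as a whole showed medians of 649 bp on X and 850 bp elsewhere.

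Fused peaks stood at an end of 393 of 21887 protein-coding genes (1.80%). The number of genes was 130 at −log10 q of at least 5, 190 after stitching peaks under 1000 bp apart and 603 with no length limit. Of the 393, 384 had a water H3K27me3 peak at an end and 9 did not. The rule places water peaks under every fused peak, so this count was largely set in advance. A set of 13 lists of developmental and neuronal genes, 548 genes in all, was read against the 393 genes. The lists held 36 genes with a fused peak (6.57%). Nearly all fused genes were marked in water, and among genes with water H3K27me3 at an end 35 of 272 list genes were fused (12.9%, 9.13 to 17.4%), against 384 of 2069 in the whole gene table (18.6%, 16.9 to 20.3%). These intervals overlapped. The list genes are also part of the whole gene table. The rule itself left out peaks over a water domain of 10 kb or longer. Such a domain lay at an end of 125 of the 272 list genes and of 376 of the 2069, so these shares are not like for like. The part that this has in the lower list share was not tested.

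**Figure D4:**
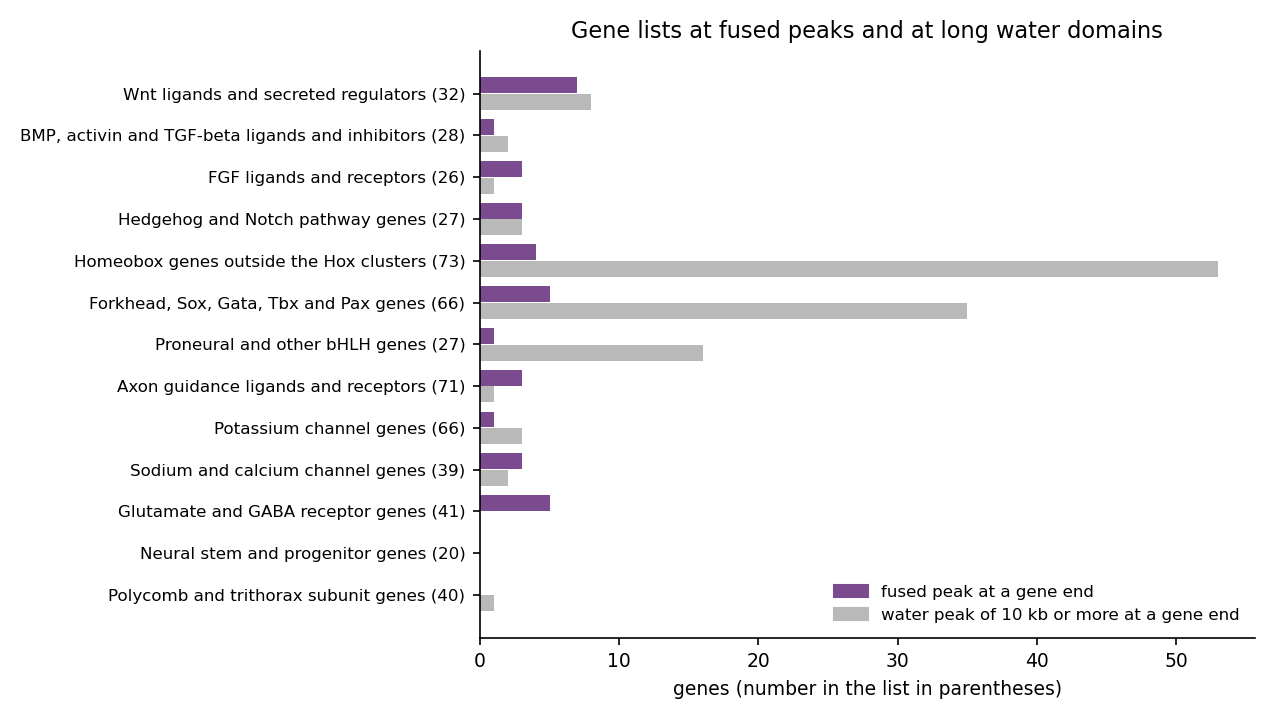
Number of genes (horizontal axis) in each of the 13 lists with a fused peak at an end (purple) and with a water H3K27me3 peak of 10 kb or more at an end (grey); the size of each list is in parentheses. Homeobox genes had 4 fused and 53 in long water domains, and Wnt genes had 7 and 8.

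Wnt ligands and secreted regulators had the most by number, with 7 of 32 genes fused and 24 marked in water: Dkk1, Rspo1, Rspo3, Sfrp1, Wnt3a, Wnt4 and Wnt8b. Of the marked genes these were 29.2% (12.6 to 51.1%), an interval that takes in the 18.6% of the whole gene table. Rspo3, another R-spondin, had an 11836 bp fused peak over water peaks of 8010 and 707 bp and held an H3K4me3 peak, 822 bp after crotonate and 770 bp in water. Wnt4, a ligand of kidney and gonad development, had an 11280 bp peak over 3 water peaks that summed to 5952 bp. FGF ligands Fgf8, Fgf15 and Fgf16 were fused, 3 of 26 genes with 13 marked in water. At Fgf8, the ligand of the anterior forebrain organiser, the fused peak was 8911 bp (chr19:45735104-45744014) over water peaks of 6872 and 409 bp, and its H3K4me3 peak was 2093 bp after crotonate against 485 bp in water. Of 28 BMP, activin and TGF-beta genes only Tgfb1 was fused, with 16 marked in water; its H3K4me3 peak was 3542 bp after crotonate and 783 bp in water.

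Hedgehog and Notch genes gave 3 of 27, with 9 marked in water. Gli1, the transcriptional effector and target of Hedgehog signalling, had a 10919 bp peak over 3 water peaks and a 428 bp H3K4me3 peak after crotonate only. The members at Dll3 and Jag2, both Notch ligand genes, were shorter, 3916 and 3182 bp, and the Dll3 member lay over Selenov and within 2 kb of Dll3.

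Homeobox genes outside the Hox clusters gave 4 of 73. Of these, 63 were marked in water, but 53 lay in water domains of 10 kb or more. The 4 were Gsx2, Irx6, Lmx1b and Pitx3. Gsx2, which sets ventral identity in the telencephalon, had an 8771 bp peak (chr5:75072327-75081097) over water peaks of 5509 and 2976 bp only 349 bp apart, and held a 721 bp H3K4me3 peak after crotonate only. Irx6 had a 12321 bp peak, with a 1217 bp H3K4me3 peak after crotonate and none in water. The member counted for Pitx3 lay over Elovl3. Forkhead, Sox, Gata, Tbx and Pax genes gave 5 of 66, with 44 marked and 35 in long domains: Foxe3, Foxs1, Pax9, Sox7 and Tbx3. Pax9, of pharyngeal pouch and tooth development, had the longest at 17053 bp over 3 water peaks, and Foxe3, of the lens, had 13771 bp over water peaks of 7301 and 456 bp. The Foxs1 member lay over Dusp15. Of 27 bHLH genes only Ascl2 was fused, with 20 marked; its 9239 bp peak held H3K4me3 peaks of 318 and 731 bp after crotonate and none in water.

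Genes of neuronal function made up the rest. Axon guidance genes gave 3 of 71, with 16 marked in water (Epha8, Plxna4 and Unc5d). Potassium channels gave 1 of 66, with 30 marked (Kcnh7). Sodium and calcium channels gave 3 of 39, with 11 marked (Cacna1i, Cacna2d1 and Cacna2d3). Plxna4, a semaphorin receptor, had 2 fused peaks, 4905 and 3989 bp. Glutamate and GABA receptor genes gave 5 of 41, with 21 marked and none in a long domain; Gabrd, Grid1 and Grin1 were among the 5. Gabrd, the delta subunit of the GABA-A receptor, had a 4192 bp peak over water peaks of 1902 and 1047 bp, with a gap of 1033 bp and no H3K4me3 in either treatment. No gene of the neural stem cell list (0 of 20, with 2 marked in water) or of the Polycomb and trithorax subunit list (0 of 40, with 4 marked) had a fused peak.

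H3K4me3 was not used to choose the members. An H3K4me3 peak lay in 230 of 974 fused peaks after crotonate (23.6%, 21.0 to 26.4%) and in 132 in water (13.6%). Over the whole crotonate H3K27me3 list these shares were 10.5% after crotonate and 6.27% in water. Peaks with 1 water partner are closer in kind, and there they were 22.4% after crotonate and 14.1% in water. H3K4me3 was present in both treatments in 132 fused peaks, after crotonate only in 98 (10.1%), and in water only in 0 of 974, which allows up to 0.308%. The whole list of 15879 had it after crotonate in 1662, in water in 995 and after crotonate only in 668. Nearly all its peaks with water H3K4me3 thus kept it, so the lack of loss was not particular to fused peaks. The H3K4me3 list itself had 16007 peaks after crotonate and 13221 in water.

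A longer peak can meet more H3K4me3 peaks, so fused peaks were compared with 1-partner peaks of the same length. Above 2 kb the share was lower in fused peaks. After crotonate the shares were 16.6% (13.1 to 20.5%) of fused and 26.1% (23.8 to 28.5%) of 1-partner peaks at 2 to 5 kb, 30.03% (25.4 to 35.0%) and 46.7% (42.3 to 51.1%) at 5 to 10 kb, and 31.0% (23.2 to 39.7%) and 54.5% (47.1 to 61.7%) at 10 to 30 kb. In water they were 9.76% (7.06 to 13.0%) and 17.4% (15.5 to 19.5%) at 2 to 5 kb, 17.4% (13.6 to 21.7%) and 26.1% (22.3 to 30.1%) at 5 to 10 kb, and 16.3% (10.4 to 23.8%) and 29.8% (23.5 to 36.9%) at 10 to 30 kb, where the intervals overlapped. The rule kept out fused peaks over a water peak of 10 kb or more, 43.6% of which held H3K4me3 after crotonate, while the 1-partner peaks had no such limit. With 1-partner peaks held to the same limit, a choice made after seeing the data, their crotonate shares were 26.5% (24.2 to 28.8%), 47.9% (43.4 to 52.5%) and, with 39 peaks left at 10 to 30 kb, 56.4% (39.6 to 72.2%). At 10 to 30 kb this interval and that of the fused peaks overlapped. Below 2 kb the intervals overlapped, with 18.1% of 72 fused peaks and 12.7% of 1-partner peaks after crotonate.

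**Figure D5:**
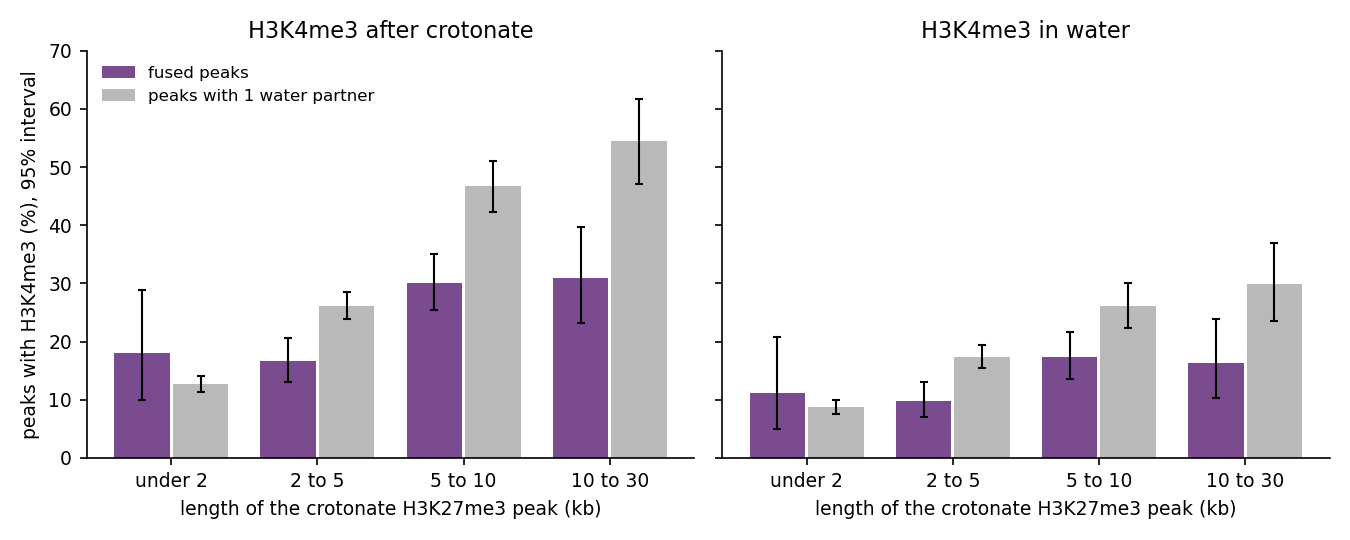
Share of crotonate H3K27me3 peaks that held an H3K4me3 peak (vertical axis, %, with exact 95% intervals) by length (horizontal axis, kb), for fused peaks and peaks with 1 water partner, with H3K4me3 after crotonate on the left and in water on the right. At 10 to 30 kb the crotonate shares were 31.0% and 54.5%.

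Gain of H3K4me3 was read in the peaks with none in water. Of these, 98 of 842 fused peaks had it after crotonate (11.6%) and 386 of 3996 1-partner peaks (9.66%). Over the whole crotonate list 668 of 14884 such peaks had it (4.49%). At matched lengths above 5 kb the fused share was lower, 15.3% (11.4 to 19.9%) against 27.9% (23.4 to 32.7%) at 5 to 10 kb and 17.6% (10.9 to 26.1%) against 35.1% (27.04 to 43.8%) at 10 to 30 kb. Under the same limit on water peaks the 1-partner shares were 28.7% (24.0 to 33.7%) and 34.6% (17.2 to 55.7%), and the last of these overlapped the fused interval. At the level of genes the shares overlapped: of 226 genes with a fused peak at an end and no H3K4me3 there in water, 91 had it after crotonate (40.3%, 33.8 to 47.0%), against 327 of 888 other genes with water H3K27me3 (36.8%, 33.6 to 40.1%).

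The place of new H3K4me3 was read against the former water H3K27me3 peaks, 67.8% of fused length, and the joined gaps, 16.8%. In the members with H3K4me3 after crotonate only there were 107 crotonate H3K4me3 peaks. Of these, 106 overlapped a water H3K27me3 peak of the member, 19 (17.8%) overlapped a joined gap, and 0 met a gap only. A peak was counted at 1 bp and could overlap both, so these counts are not of a kind with the shares of length. An H3K4me3 peak longer than the gap it met had to overlap a water peak too. Whether the placement departs from the shares of length was not tested. Of the 1255 joined gaps 58 met H3K4me3 after crotonate (4.62%) and 24 in water (1.91%). Gaps that crotonate joined, under 5 kb and between water peaks under 10 kb, met water H3K4me3 less often than gaps it did not join: 25 of 1348 (1.85%, 1.20 to 2.73%) against 94 of 2257 (4.16%, 3.38 to 5.07%). Below 500 bp this was 2.06% (0.991 to 3.75%) against 8.24% (4.69 to 13.2%). For crotonate H3K4me3 the intervals overlapped, with 4.38% (3.35 to 5.61%) of joined gaps and 5.85% (4.92 to 6.90%) of the others.

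The CpG content of promoters in fused peaks was set beside that in other crotonate peaks. The 236 start sites of 206 genes inside fused peaks had a median of 14 CpGs in the 250 bases before the start, and 28.0% of them had 20 or more (22.3 to 34.2%). The 824 sites in 1-partner peaks had a median of 13 and 30.5% with 20 or more (27.3 to 33.7%), against a median of 10 and 23.7% over all 21263 sites. The motif counted is CG, the same on both strands. Within fused peaks the count followed H3K4me3 at the start site. A site was counted as marked only where an H3K4me3 peak covered the start itself. Sites with it in neither treatment thus include some with a peak close by, as at Rspo1, Wnt4 and Gsx2. Medians were 21 CpGs at the 58 sites with H3K4me3 in both treatments, 16 at the 51 sites with it after crotonate only and 7 at the 127 sites with it in neither, and over all start sites those with it in both had 18 and those with it in neither 3.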

How the data were processed

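CUT&Tag peak lists of 4 of the 6 samples (H3K27me3 and H3K4me3, each after crotonate and after water) served as input; IgG was not analysed here. Per the submitters' processing notes the build was GRCm38 and the tools included MACS2 2.2.7.1, Bowtie2 2.4.1, Picard 2.22.0 and SAMtools 1.10. No source used here gives their settings or the background library. The deposited lists hold, per the file headers, the position, length and summit of each peak, the pileup signal at the summit, −log10 of the p-value and of the q-value, and fold enrichment, a ratio of signal to local background formed by the authors' caller. That the caller added 1 to numerator and denominator is a reading made here, absent from the headers. All peaks had q under 0.05. Calling was per library, so a peak's extent depends on depth. Read totals were not used here, and relative depth was estimated from the pileup steps (whole fragments within 0.006 in 100% of peaks) and the lowest background.

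The rule was applied in Python 3.11.15 with pandas 2.3.3 and gave the same 974 members with bedtools 2.31.1. It was tested on simulated peaks. Intervals are exact Clopper-Pearson at 95% (scipy 1.17.1), limits for a count of 0 take 3 counts, and both cover counting error only. No test was run, because each treatment had 1 library per mark. Genes came from the RefSeq table of GRCm38.p6, and an H3K4me3 peak was counted at 1 bp of overlap. RefSeq promoters were matched by symbol, giving 21263 start sites of 17492 genes. The members, the gene lists and the alternatives were chosen with earlier results of these data known. Named members are, of those at or over a gene, the 8 with most water peaks, the 8 longest, the 8 with the longest gap, the 8 highest in −log10 q and the 6 with the highest length ratio, plus up to 4 per gene list. The genes with several members, the members between genes, the lowest ratio and the printed promoters were chosen after their values were seen. A few results are not reported here.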

Additional observations from a re-analysis of the deposited data

How the results depend on the processing

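The main values were 974 fused peaks, 344 split water peaks, 57.6% of water pairs within 1 kb joined, a median length ratio of 1.38, crotonate H3K4me3 in 23.6% of members and 4.62% of joined gaps, and 393 genes. Over the 12 alternatives for these values, 49 of 71 values moved by less than their tolerance. Fused peaks outnumbered split ones in all 11 settings that gave both, the main one included. With peaks of −log10 q of at least 5 only, there were 275 fused and 147 split peaks, a ratio of 1.27 and 130 genes. With the crotonate list at equal length, 212 peaks were split, and with 50% overlap 173, with a ratio of 1.46. After stitching peaks under 500 bp apart, 196 peaks were split, 62.5% of pairs joined and the ratio was 1.504. After stitching under 1000 bp there were 492 fused and 78 split peaks, a ratio of 1.77, H3K4me3 in 19.3% of members and 2.95% of gaps, and 190 genes; no pair within 1 kb is left there to give a share. With no length limit the ratio was 1.29, the H3K4me3 share 27.2% and the genes 603, and with a limit of 5000 bp the ratio was 1.49 and the share 20.1%. Without chromosome X, chosen after seeing the data, 60.1% of pairs joined. Holding 1-partner peaks to the same length limit, also chosen then, moved none of their 6 H3K4me3 shares above 2 kb out of its interval. Causes of these shifts were not tested, apart from the fewer peaks that the stricter lists hold. No paired analysis was possible because each mark and treatment has 1 library.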

Other observations

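The same rule applied to H3K4me3 gave 488 fused peaks among 16007 crotonate peaks and 28 split peaks among 13221 water peaks. Of neighbouring water H3K4me3 peaks within 1 kb, 72.0% of 678 pairs were met by a single crotonate peak, and of crotonate pairs that close, 1.89% of 1482 were met by a single water peak.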
